A study of Drosophila melanogaster with 10 samples.

Results

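The 9 genes crc, PEK, Gcn2, Xbp1, Ire1, Atf6, Hsc70-3, Gp93 and Atf3 carry the unfolded protein response and the integrated stress response of the fly, and were taken by their symbols from the 17562 genes counted in adult male thoraces. Esg>yki[S3A] flies, which combine esg-Gal4 and tub-Gal80ts with UAS-GFP over UAS-yki-act, express activated yorkie in progenitors of the gut at 29 °C, and their thoraces were profiled at days 2, 8 and 14 of tumor induction and, after return to 18 °C at day 14, at days 20, 26, 32 and 38 (Esg>yki[S3A], below called yki-tumor thoraces). Control flies (esg-Gal4, tub-Gal80ts, UAS-GFP/+) have the same driver, temperature-sensitive repressor and GFP but no yorkie transgene, and were profiled at days 2 and 14 at 29 °C and at day 38 at 18 °C. Both genotypes shared the temperature shifts, so a difference between days 14 and 38 mixes age with temperature, and each of the 10 libraries pooled 8-10 thoraces. The driver acts in the gut, so the thorax, which is mostly muscle with some fat body, was read out as a distant tissue. Each condition had 1 library: no difference below has a replicate check, no p-value was computed, and intervals are exact 95% ones (Clopper-Pearson) from read numbers, which cover counting error only.

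Proteins that enter the endoplasmic reticulum (ER) are folded there by chaperones, and unfolded protein in its lumen is sensed by 3 membrane proteins, Ire1, PEK and Atf6. Ire1 cuts an intron out of the Xbp1 mRNA so that the Xbp1 transcription factor can be made, PEK phosphorylates the translation factor eIF2alpha, and Atf6 is released by proteolysis to act as a transcription factor. Gcn2 is a second eIF2alpha kinase that responds to amino acid shortage, and phosphorylated eIF2alpha lowers general translation while favoring translation of crc, the fly ATF4. Counts of reads per gene report neither Xbp1 splicing nor the translation of crc nor the phosphorylation of any of these proteins, so the values below are mRNA levels of the pathway parts and not its activity.

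Levels are given in RPKM, the reads of a gene per kilobase of merged exon scaled to the library's reads on all genes. The libraries held between 14615109 and 38208954 reads on genes, and the 9 genes between 587 (Atf3, control day 2) and 29826 reads (Xbp1, control day 14). The mitochondrial genome took 46.9% of reads in yki-tumor thoraces at day 14 (95% Wilson interval 46.92 to 46.96) and between 24.3% and 32.5% in the other 9 libraries, and over 8368 genes with at least 2 RPKM the median log2 ratio of yki-tumor to control at day 14 was -0.36. Ratios are therefore also given relative to the median of all genes, a quantity that no choice of library total can move, or with reads on nuclear protein-coding genes as the total. Flight muscle markers had reads in every library, with RPKM over the 8 genes summing to between 1644 and 6274 in yki-tumor and between 2957 and 6857 in control thoraces. The 6 fat body markers summed to between 779 and 1734 in yki-tumor and between 801 and 2169 in control thoraces. All 5 testis markers had reads in the control library of day 14, with a sum of 8.86 RPKM, while the other libraries had between 2 and 4 of them at 0. The day 14 comparison is therefore also given with other control libraries in its place. Reads of yki itself were at 3.60 to 9.83 RPKM in yki-tumor and at 4.10 to 8.85 RPKM in control thoraces. The driver gene esg was low, at 0.322 to 0.647 RPKM in yki-tumor and 0.135 to 0.333 RPKM in control thoraces. Its reads in yki-tumor against control thoraces were 33 against 9 at day 2, 43 against 16 at day 14 and 19 against 14 at day 38. The source of these esg reads was not tested.

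All 9 genes were expressed in every library, in a similar order. Xbp1 was the highest of the 9 in 10 of 10 libraries, with a mean of 339 RPKM, and Hsc70-3 (120.1 RPKM) and crc (103 RPKM) came next, crc being above Hsc70-3 in 3 of 10 libraries. Gp93 (34.5 RPKM) and Atf6 (31.9 RPKM) exchanged places between libraries, and Ire1 followed at 19.3 RPKM, while PEK (11.1 RPKM), Gcn2 (8.33 RPKM) and Atf3 (7.18 RPKM) were the lowest. Per length, the effectors Xbp1 and crc were thus above the kinases Ire1, PEK and Gcn2 in every library, and the ratio of Xbp1 to Ire1 RPKM lay between 12.6 and 27.8 in all libraries.

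**Figure D1:**
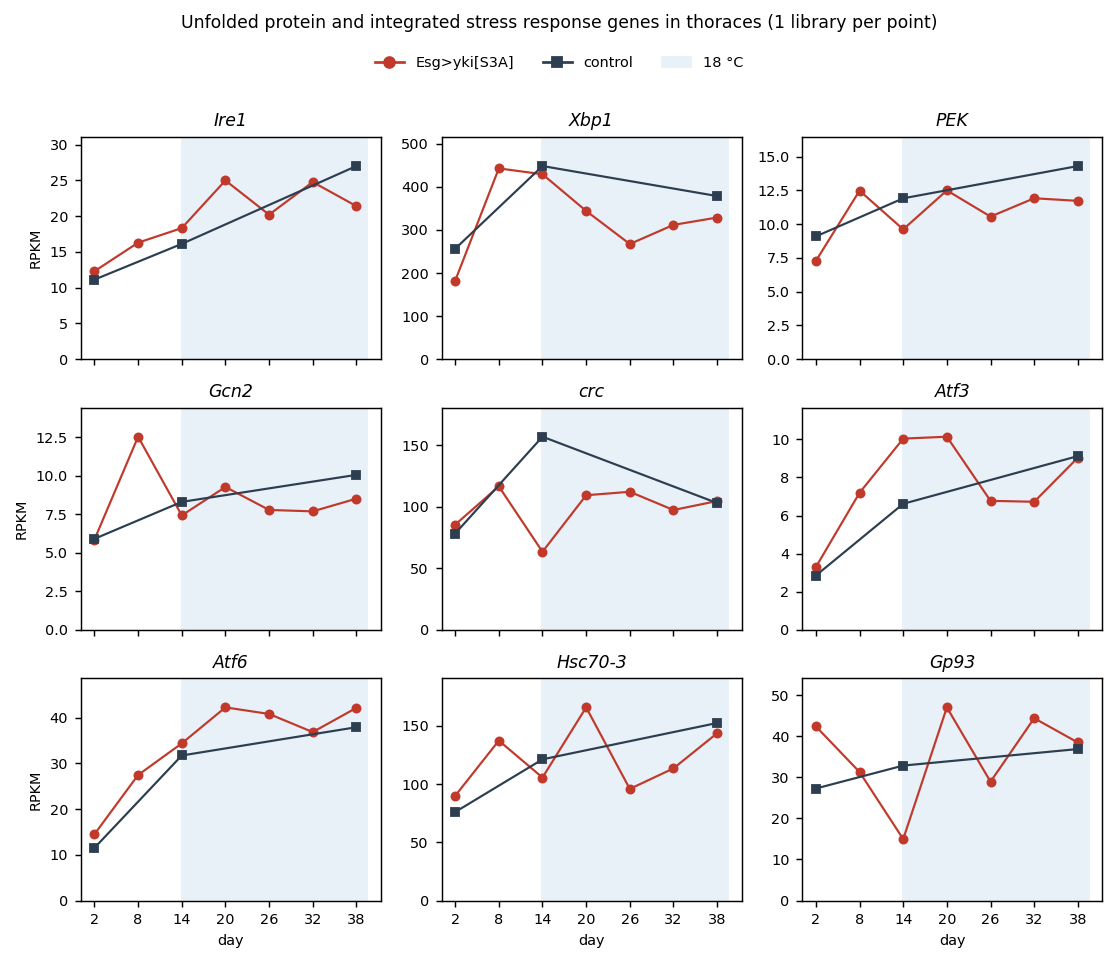
RPKM (y axis, from 0, own scale in each panel) of the 9 genes against day (x axis) in yki-tumor (Esg>yki[S3A], red circles) and control thoraces (dark squares), 1 library per point, with the 18 °C phase shaded. With all reads on genes as the total, for 7 genes both day 2 libraries are the lowest points, while crc and Gp93 are lowest in yki-tumor thoraces at day 14.

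Of the sensors, Ire1 (FBgn0261984, chromosome 3R from 19853908 to 19861291, minus strand, in Release 6 coordinates) is the kinase and endonuclease that splices Xbp1. It had 12.3 RPKM at day 2, 16.3 at day 8 and 18.3 at day 14 in yki-tumor thoraces and then 24.99, 20.2, 24.8 and 21.4 RPKM at days 20, 26, 32 and 38. In control thoraces it had 11.1, 16.1 and 27.0 RPKM at days 2, 14 and 38. Day 2 was the lowest point in both genotypes. Its substrate Xbp1 (FBgn0021872, chromosome 2R from 21143545 to 21145750, plus strand) had 182, 443 and 429 RPKM at days 2, 8 and 14 of tumor induction and 344, 267, 312 and 329 RPKM at the 4 later days. Control thoraces had 256, 448 and 379 RPKM. Xbp1 was at its highest during the 29 °C phase after day 2 in both genotypes, and the 2 day 2 libraries differed, with a log2 ratio of yki-tumor to control of -0.49 (-0.53 to -0.46).

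Atf6 (FBgn0033010, chromosome 2R from 5144733 to 5154756, plus strand), the membrane-bound transcription factor, had 14.5, 27.4 and 34.3 RPKM at days 2, 8 and 14 in yki-tumor thoraces. It stayed between 36.8 and 42.2 RPKM at the 4 later days. Control thoraces had 11.5, 31.7 and 37.9 RPKM. The levels at day 2 were thus less than those of every later library of either genotype. Exons of Atf6 overlap annotated transposon insertions by 448 bases on the same strand and 807 on the other, together 30.7% of its 4085 exon bases.

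PEK (FBgn0037327, chromosome 3R from 5458563 to 5464753, minus strand), the ER-resident eIF2alpha kinase, had 7.28, 12.5 and 9.61 RPKM at days 2, 8 and 14 in yki-tumor thoraces and 12.5, 10.6, 11.9 and 11.7 RPKM at days 20, 26, 32 and 38. Control thoraces had 9.09, 11.9 and 14.3 RPKM at days 2, 14 and 38. All levels of PEK were thus within 2-fold of each other. Gcn2 (FBgn0019990, chromosome 3R from 31395660 to 31402013, plus strand) had 5.85 RPKM at day 2 in yki-tumor and 5.90 RPKM in control thoraces. It reached 12.5 RPKM at day 8 in yki-tumor thoraces, its highest value in the 10 libraries, and was back at 7.42 RPKM at day 14, when control thoraces had 8.30 RPKM. At the later days it lay between 7.68 and 9.26 RPKM in yki-tumor thoraces, and control thoraces had 10.05 RPKM at day 38. No control library of day 8 was analysed here, so that value cannot be set against a control of the same age.

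The transcription factor crc (FBgn0000370, chromosome 2L from 21310866 to 21319527, plus strand) is the translationally controlled effector shared by both eIF2alpha kinases. In yki-tumor thoraces it had 85.5, 117 and 63.4 RPKM at days 2, 8 and 14 and 109, 112, 97.4 and 105 RPKM at days 20, 26, 32 and 38. In control thoraces it had 78.2, 157 and 103 RPKM at days 2, 14 and 38. Day 14 thus held both the lowest crc level of the 10 libraries, in yki-tumor thoraces, and the highest, in control thoraces, and the other 8 libraries lay between 78.2 and 117 RPKM. Of the 3423 exon bases of crc, 2515 also belong to CG46314, a gene on the same strand that was listed with 0 reads in all 10 libraries. How reads in shared exons were assigned is not given in the sources used here, and the level of crc per length depends on it.

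Atf3 (FBgn0028550, chromosome X from 1242740 to 1275284, minus strand), a bZIP factor of stress responses, had 3.299, 7.20 and 10.04 RPKM at days 2, 8 and 14 in yki-tumor thoraces and 10.1, 6.77, 6.72 and 9.04 RPKM at the later days. Control thoraces had 2.85, 6.62 and 9.12 RPKM. Its highest levels in yki-tumor thoraces were those around the end of tumor induction, and its lowest were at day 2 in both genotypes.

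The chaperones are known targets of the response. Hsc70-3 (FBgn0001218, chromosome X from 11801696 to 11807117, minus strand), the fly BiP, is the main Hsp70 of the ER lumen. It had 89.9, 137 and 106 RPKM at days 2, 8 and 14 in yki-tumor thoraces and 166, 95.8, 113 and 144 RPKM at days 20, 26, 32 and 38. Control thoraces had 76.0, 121 and 152 RPKM. Gp93 (FBgn0039562, chromosome 3R from 27948711 to 27952151, plus strand), the fly GRP94, is the Hsp90 of the same compartment. It had 42.4, 31.3 and 14.96 RPKM at days 2, 8 and 14 in yki-tumor thoraces and 47.04, 28.9, 44.4 and 38.5 RPKM at the later days. Control thoraces had 27.3, 32.9 and 36.9 RPKM. The day 14 level of Gp93 in yki-tumor thoraces was the lowest of the 10, next to 27.3 RPKM in control thoraces at day 2, while Hsc70-3 at that day was within the range of the other libraries.

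A pattern shared by 7 of the 9 genes was that both day 2 libraries lay below the other 8; crc and Gp93 were the exceptions. Over all 9233 genes with at least 2 RPKM in any library, 30.5% had this pattern. The count depended on the scaling: with edgeR's TMM factors 3 genes kept it (Ire1, Atf3 and Atf6), against 16.6% of all genes. The other pattern, the lowest level in yki-tumor thoraces at day 14, held for crc and Gp93, or 2 of 9, where 31.5% of all genes had it. With nuclear protein-coding reads as the total it held for Gp93 alone, against 14.1% of all genes. Exons of 3 further members overlap a gene on the other strand, by 496 of 4034 bases for Ire1 (MICU3), 454 of 5743 bases for Gcn2 (PNPase) and 101 of 2841 bases for Gp93 (CG4951), and whether counting used strand is not given in the sources used here.

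At day 14, the last day of tumor induction, crc and Gp93 were lower in yki-tumor than in control thoraces. crc had 6858 reads in yki-tumor and 16680 in control thoraces, which gave a log2 ratio of -1.31 (-1.35 to -1.27), or -0.95 relative to the median of all genes. Gp93 had 1343 reads in yki-tumor and 2900 in control thoraces, with a log2 ratio of -1.13 (-1.23 to -1.04), or -0.78 relative to that median. Atf3 was higher in yki-tumor thoraces, by 0.60 (0.51 to 0.70), or by 0.96 relative to the median. These were the largest differences among the 9 genes at this day. No member was past 2-fold upward, where 2.99% of 8368 genes were, and crc and Gp93 were the 2 of 9 past 2-fold downward, where 17.0% of all genes were. With nuclear protein-coding reads as the total the count is 1 upward (Atf3, 1.04; background 7.95%) and 0 downward (background 6.73%), crc being at -0.86 and Gp93 at -0.69.

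The size of the crc difference depended on the control library. Set against control thoraces of day 2 the log2 ratio of crc in yki-tumor thoraces at day 14 was -0.30, and against control thoraces of day 38 it was -0.70. For Gp93 the same values were -0.87 and -1.30. Gp93 stayed lower in yki-tumor thoraces with each of the 3 control libraries under all 4 scalings, the smallest difference being -0.36 against control day 2 with nuclear protein-coding reads as the total. For crc that same combination gave 0.21, so its direction at day 14 depends on which control library and which total are used. Atf3 was higher in yki-tumor thoraces in all these combinations, by at least 0.14. These substitutions mix genotype with age and, at day 38, with temperature. Markers of cell types moved as well. At day 14 the 6 fat body markers summed to 779 RPKM in yki-tumor and to 2169 RPKM in control thoraces, where Fbp1 was at 0, the lowest and highest sums of the 10 libraries. The 8 flight muscle markers summed to 1695 RPKM in yki-tumor and to 5972 RPKM in control thoraces, the 6 hemocyte markers to 84.7 and, in control thoraces, 101 RPKM, and the 5 neuron markers to 85.05 and, in control thoraces, 56.8 RPKM. The muscle and fat body gaps came largely from single genes. Act88F had 194 RPKM in yki-tumor and 3048 RPKM in control thoraces, and apolpp 727 and, in control thoraces, 1801 RPKM. Mf alone of the flight muscle markers was not lower, with 289 RPKM in yki-tumor and 276 RPKM in control thoraces. The part of these markers in the crc and Gp93 differences was not tested, and fewer cells of a type and less RNA per cell cannot be told apart in bulk thoraces.

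The remaining 6 genes differed less at day 14. Ire1 (0.19) and Atf6 (0.12) were slightly higher in yki-tumor thoraces, at 0.55 and 0.48 relative to the median of all genes. Against control thoraces of day 38 they were at -0.56 and -0.14 with all reads on genes. With TMM, median of ratios and nuclear reads, Ire1 was there at -0.11, -0.18 and -0.04, and Atf6 at 0.31, 0.24 and 0.38. The log2 ratios of PEK (-0.31), Gcn2 (-0.16), Hsc70-3 (-0.20) and Xbp1 (-0.06) were below 0 with all reads on genes and at 0.13, 0.28, 0.24 and 0.38 with nuclear protein-coding reads, so no direction can be given for them. For the 3 ER sensors this places the mRNA of PEK near the median of all genes (0.05 above it) and those of Ire1 and Atf6 above it.

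**Figure D2:**
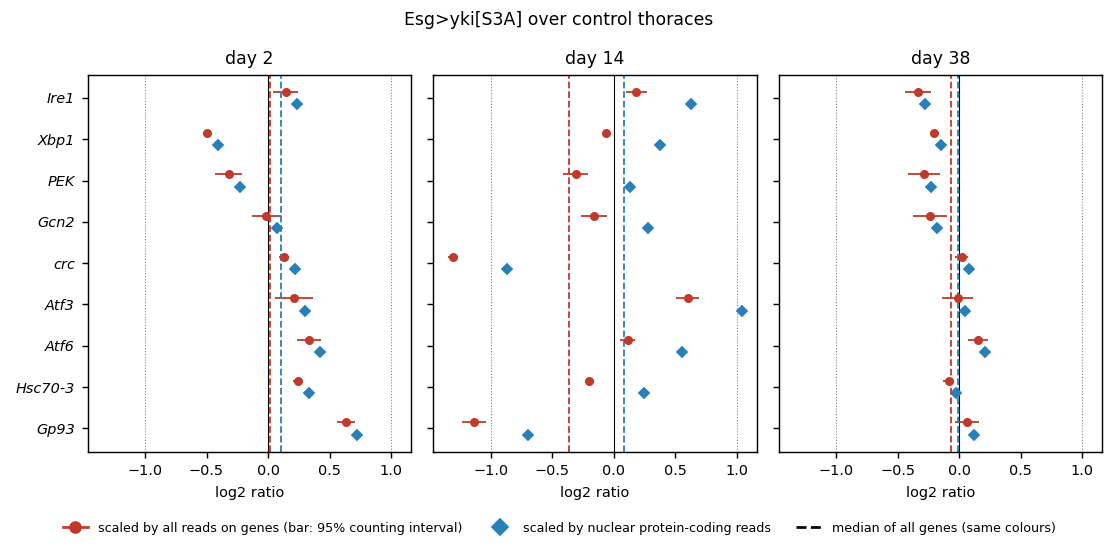
Log2 ratios of RPKM (x axis) of yki-tumor over control thoraces for the 9 genes (rows) at days 2, 14 and 38, with all reads on genes (red circles, 95% counting intervals) or nuclear protein-coding reads (blue diamonds) as the total. Dotted lines mark 2-fold and dashed lines the median of all genes. Only the day 14 panel holds points past 2-fold, for crc and Gp93 downward and, with nuclear reads, Atf3 upward.

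At day 2 and day 38 no member was past 2-fold between the genotypes. At day 2 the background was 3.68% of 8093 genes upward and 0.951% downward, and at day 38 it was 3.79% of 8551 genes upward and 1.53% downward. Gp93 was higher in yki-tumor thoraces at day 2, with 4517 reads against 2270 in control thoraces and a log2 ratio of 0.64 (0.56 to 0.71). Xbp1 (-0.49) and PEK (-0.32, -0.43 to -0.21) were lower at day 2, and these 3 were among the largest differences of that day, with Atf6 at 0.33 (0.24 to 0.43). The 6 midgut markers summed to 40.4 RPKM in yki-tumor and 11.1 RPKM in control thoraces at day 2, the highest sum of the 10 libraries being that of yki-tumor thoraces, and their part in these differences was not tested. By day 38, after 24 days at 18 °C, the log2 ratios of all 9 genes lay between -0.34 (Ire1) and 0.15 (Atf6). Those of crc (0.02, -0.03 to 0.08), Gp93 (0.06, -0.04 to 0.16) and Atf3 (-0.01, -0.14 to 0.11) had counting intervals that include 0 with all reads on genes as the total. With nuclear reads they were at 0.08 for crc, 0.12 for Gp93 and 0.04 for Atf3, so whether 0 lies inside the intervals of crc and Gp93 depends on the total.

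Over tumor induction, Atf3, Atf6 and Xbp1 were the genes past 2-fold upward from day 2 to day 14 in yki-tumor thoraces and Gp93 the one past 2-fold downward. Their log2 ratios of day 14 to day 2 were 1.61 (1.49 to 1.72), 1.25 (1.17 to 1.32), 1.24 (1.21 to 1.27) and -1.50 (-1.59 to -1.41). The day 2 level behind the Gp93 value was itself higher in yki-tumor than in control thoraces (0.64), and that of Xbp1 was lower (-0.49). Of all 8433 genes tested, 12.8% were past 2-fold upward and 19.0% downward. In control thoraces over the same days Atf6 (1.46), Atf3 (1.21) and crc (1.004) were past 2-fold upward, where 15.3% of 8327 genes were, and no member was past it downward, where 4.83% were. The value of crc sat at the cut-off, at 2.01-fold. With TMM factors Atf6 alone of the members was past 2-fold in control thoraces, at 1.11, where 8.01% of all genes were. Atf3 and Atf6 thus had higher levels at day 14 than at day 2 in yki-tumor and in control thoraces, under each scaling. For Atf3 the change was larger in yki-tumor thoraces under each scaling. For Atf6 the change in yki-tumor less that in control thoraces was -0.22 with all reads on genes, 0.15 with TMM factors and 0.14 with nuclear reads.

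The change in yki-tumor less the change in control thoraces was -1.77 for Gp93 and -1.43 for crc, where the median of all genes was -0.37. For crc the change was -0.43 (-0.47 to -0.39) in yki-tumor and 1.004 (0.97 to 1.04) in control thoraces. With nuclear protein-coding reads as the total the crc change in yki-tumor thoraces was -0.01 and that in control thoraces 1.07, so the gap between the genotypes remained at -1.08 while the decrease in yki-tumor thoraces did not. Xbp1 (0.43) and Atf3 (0.39) changed more upward in yki-tumor than in control thoraces, and the other 5 genes lay between -0.44 (Hsc70-3) and 0.04 (Ire1). The 4 values behind each of these differences also make up the day 14 difference less the day 2 difference, so they are not further evidence for it. The day 14 and day 2 differences were -1.13 and 0.64 for Gp93, -1.31 and 0.13 for crc, and 0.60 and 0.21 for Atf3. For Xbp1 they were -0.06 and -0.49, so with all reads on genes it was not above control at day 14. With nuclear reads it was at 0.38 there.

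**Figure D3:**
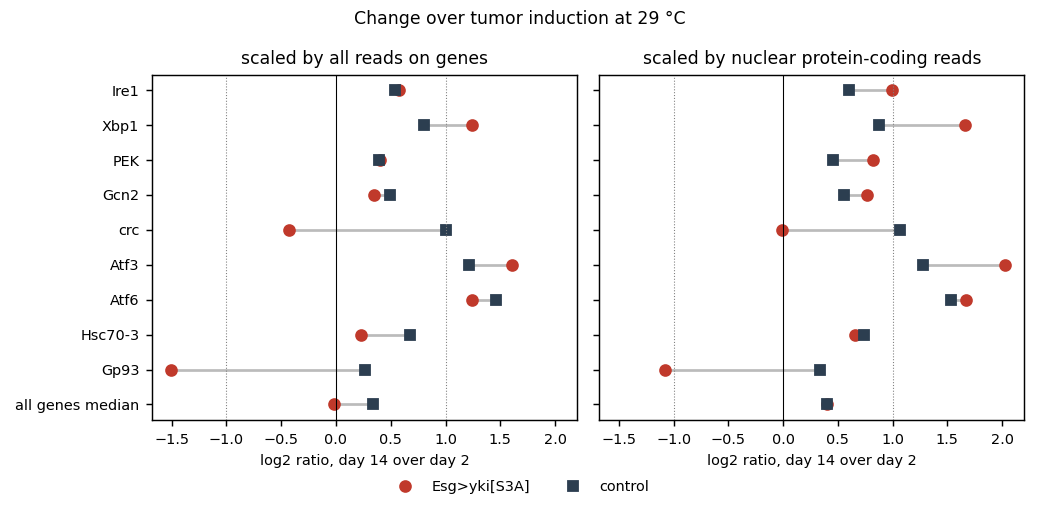
Log2 ratio of day 14 over day 2 (x axis) in yki-tumor (Esg>yki[S3A], red circles) and control thoraces (dark squares) for the 9 genes and the median of all genes (rows), with all reads on genes (left) or nuclear protein-coding reads (right) as the total. The widest gaps are those of Gp93 and crc, with yki-tumor thoraces on the lower side in both panels.

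The day 8 library showed which of these changes were present earlier. Xbp1 (1.28, 1.25 to 1.31), Atf3 (1.13) and Gcn2 (1.10, 0.994 to 1.202) were past 2-fold upward from day 2 to day 8 in yki-tumor thoraces, where 13.2% of 8552 genes were, and no member was past 2-fold downward, where 7.32% were. With TMM factors none was past 2-fold upward, the highest being Xbp1 at 0.92, where 5.22% of all genes were. Gp93 was lower at day 8 than at day 2 (-0.44, -0.51 to -0.37), while crc was at 0.45 (0.41 to 0.49) with all reads on genes and at 0.08 with TMM factors. The day 2 level of Gp93 was itself above control (0.64). Its 31.3 RPKM at day 8 lay within the 27.3 to 36.9 RPKM of the control libraries.

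After the shift to 18 °C, Gp93 was the one member past 2-fold upward. From day 14 to day 20 in yki-tumor thoraces its log2 ratio was 1.65 (1.56 to 1.75), or 1.23 relative to the median of all genes, where 17.5% of 8474 genes were past 2-fold upward and 1.76% downward. From day 14 to day 38 it was 1.36 (1.26 to 1.47), or 1.02 relative to the median, and 0.95 with TMM factors and 0.90 with nuclear reads, where 22.0% of 8566 genes were past 2-fold upward and 5.73% downward. crc was higher than at day 14 as well, by 0.79 (0.74 to 0.83) at day 20 and 0.72 (0.67 to 0.77) at day 38. Relative to the median of all genes these values were 0.36 and 0.38. Xbp1 was lower than at day 14, by -0.32 (-0.35 to -0.29) at day 20 and -0.38 (-0.42 to -0.35) at day 38, or -0.74 and -0.73 relative to that median. In control thoraces from day 14 to day 38 no member was past 2-fold in either direction, where 7.79% of 8623 genes were upward and 8.95% downward. There crc was lower at day 38 (-0.61, -0.65 to -0.57) and Xbp1 was lower too (-0.24), while Ire1 was higher (0.74, 0.65 to 0.83).

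Ratios of one gene to another within a library do not depend on the library total. The ratio of Hsc70-3 to Gp93 RPKM, the Hsp70 to the Hsp90 of the ER, was 7.06 (6.67 to 7.47) in yki-tumor thoraces at day 14. It was between 2.12 and 4.39 in the other 9 libraries, with 4.39 in yki-tumor thoraces at day 8 and 3.69 in control thoraces at day 14. The ratio of crc to Xbp1 RPKM was 0.148 (0.144 to 0.152) in yki-tumor thoraces at day 14 and between 0.263 and 0.469 in the other 9 libraries. The ratio of Atf3 to crc RPKM was 0.158 (0.151 to 0.166) in the same library and between 0.0365 and 0.0927 in the others. In each of these 3 ratios, chosen after the values were seen, the library of yki-tumor thoraces at day 14 stood outside the range of the rest, and at day 20 the Hsc70-3 to Gp93 and crc to Xbp1 ratios were inside the range of the other 8 libraries, while that of Atf3 to crc, at 0.0927, was the next highest.

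**Figure D4:**
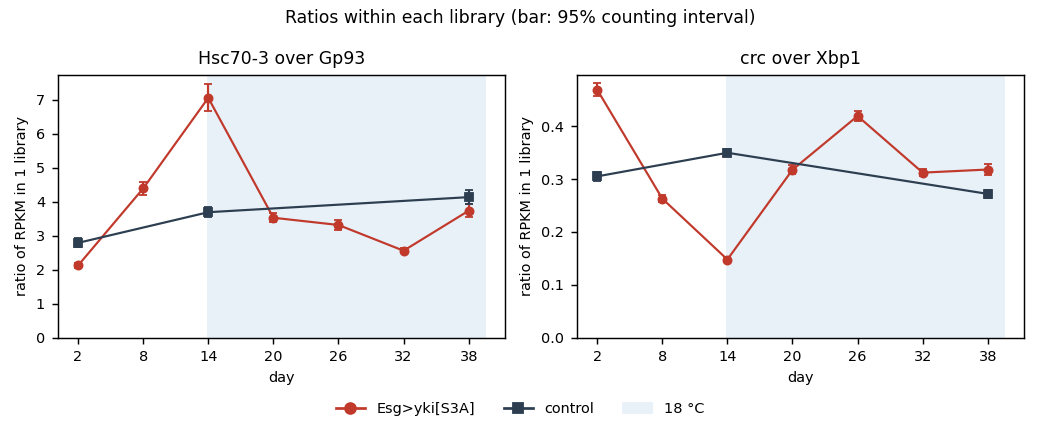
Ratio of RPKM of Hsc70-3 over Gp93 (left) and of crc over Xbp1 (right) within each library (y axis, from 0) against day (x axis) in yki-tumor (Esg>yki[S3A], red circles) and control thoraces (dark squares), with 95% counting intervals and the 18 °C phase shaded. yki-tumor thoraces at day 14 are the highest point on the left (7.06) and the lowest on the right (0.148).

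Across the 10 libraries the members did not move as a block. Among the 7 members with a mean of at least 10 RPKM, Pearson's r of log2(RPKM + 1) was highest for Ire1 with Atf6 (0.90) and lowest for Xbp1 with Gp93 (-0.33), and Hsc70-3 with Gp93 gave 0.39. The genes closest to crc by the same measure among 4578 genes were GPHR (0.91), Gba1b (0.90) and CG5355 (0.89), those closest to Xbp1 were Snx21 (0.95), Yip1d1 (0.93) and CG8042 (0.93), and those closest to Hsc70-3 were Hrb98DE, Sec22 and RhoGEF2 (0.95, 0.95 and 0.94). These values describe 10 libraries that share their totals and 2 time courses, and they were taken from many genes. The ratio of the highest to the lowest library over all 10 libraries was between 1.97 (PEK) and 3.67 (Atf6) for the 9 members, of which Gcn2 and Atf3 average under 10 RPKM, and genes with a mean of at least 10 RPKM had a median ratio of 2.63.

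The genes that work beside the 9 were taken as 5 lists, of chaperones, lectins and disulfide isomerases of the ER, of ER-associated degradation, of the translocon and signal peptidase, of the eIF2 machinery and of genes known as ATF4 targets. At day 14, 12 of 13 chaperones and isomerases were lower in yki-tumor than in control thoraces, with a median log2 ratio of -0.58, and with nuclear protein-coding reads as the total 7 of 13 were lower, with a median of -0.13. Of all 8368 genes, 72.3% were lower, with a median of -0.36, and with nuclear reads 43.9% were lower, with a median of 0.08. ERp60, a disulfide isomerase, was the 1 of 13 past 2-fold downward, where 17.0% of all genes were, with 67.4 RPKM in yki-tumor and 171 RPKM in control thoraces and a log2 ratio of -1.34 (-1.40 to -1.29). Pdi, the main disulfide isomerase, had 99.0 RPKM in yki-tumor and 171 RPKM in control thoraces. CG2918, the fly relative of the mammalian chaperone Hyou1, had 20.01 RPKM in yki-tumor and 35.4 RPKM in control thoraces. At days 2 and 38 the medians of this list were 0.22 and -0.14, where those of all genes were 0.02 and -0.06. With all reads on genes, ERp60, Pdi and CG2918, like Gp93, were lowest of the 10 libraries in yki-tumor thoraces at day 14. The other genes of the list were not, and 31.5% of all genes had this pattern.

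In the ER-associated degradation list 11 of 12 genes were below 0 at day 14, with a median of -0.55 (-0.10 with nuclear reads), where 72.3% of all genes were below 0, with a median of -0.36 (0.08 with nuclear reads). TER94, the ATPase that extracts proteins from the ER membrane, had 93.7 RPKM in yki-tumor and 231 RPKM in control thoraces (-1.30, -1.33 to -1.27). Its cofactor Npl4 had 116 RPKM in yki-tumor and 348 RPKM in control thoraces (-1.59, -1.62 to -1.55). These were the 2 of 12 past 2-fold downward, close to the 17.0% of all genes, and with nuclear reads Npl4 was the 1 of 12, where 6.73% of all genes were. The exception upward was Ubc6, an E2 ubiquitin-conjugating enzyme, with 79.1 RPKM in yki-tumor and 56.9 RPKM in control thoraces. It was listed by its symbol, and whether it acts in ER-associated degradation in the fly was not checked. In the translocon list 13 of 13 genes were below 0, where 72.3% of all genes were, with a median of -0.54. With nuclear reads they lay on both sides of 0, with a median of -0.10. SsRbeta (-1.15) and SrpRalpha (-1.002), subunits of the translocon-associated complex and of the signal recognition particle receptor, were the 2 of 13 past 2-fold downward. This was again close to the 17.0% of all genes, and neither was past it with nuclear reads. Of the eIF2 machinery 11 of 11 genes were below 0, with a median of -0.59. With nuclear reads these genes also lay on both sides of 0, with a median of -0.15. The 1 of 11 past 2-fold downward, a smaller share than the 17.0% of all genes, was eIF2Bbeta, a subunit of the exchange factor that phosphorylated eIF2alpha inhibits, at -1.07 (-0.63 with nuclear reads).

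Genes known as ATF4 targets went both ways at day 14. Of the 9 with at least 2 RPKM, 2 were past 2-fold upward and 3 downward, where 2.99% and 17.0% of all genes were. With nuclear reads 3 were past it upward and 1 downward, where 7.95% and 6.73% of all genes were. Thor, the fly 4E-BP, which restrains cap-dependent translation, had 10.5, 24.6 and 29.1 RPKM at days 2, 8 and 14 in yki-tumor thoraces and 43.1, 10.4, 13.6 and 15.6 RPKM at days 20, 26, 32 and 38. Control thoraces had 11.9, 8.57 and 19.9 RPKM. At day 14 its log2 ratio was 1.77 (1.54 to 1.999), the highest of the list. The authors name 4E-BP as a known target of the transcription factors REPTOR and FoxO, and which factor its level follows was not tested. The other gene past 2-fold upward was trbl, a pseudokinase, at 1.04 (0.92 to 1.16), named after its value was seen.

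Enzymes of serine and one-carbon metabolism in that list also went both ways. CG6287, which carries out the first step of serine synthesis, had 17.8 RPKM in yki-tumor and 51.3 RPKM in control thoraces at day 14 (-1.53, -1.66 to -1.41). Shmt, which passes the carbon of serine to folate, had 9.10 RPKM in yki-tumor and 21.9 RPKM in control thoraces (-1.27). The last step of serine synthesis, aay, was higher, with 40.8 RPKM in yki-tumor and 28.3 RPKM in control thoraces (0.53). Ldh, also named after its value was seen, had 1.04 RPKM in yki-tumor and 2.22 RPKM in control thoraces. Of the other tested genes, Nmdmc was at 0.97, AsnS at -0.49 and CG11899 at -0.39, all named after their values were seen. With all reads on genes and control day 14, the mRNA of Thor and trbl thus differed in the opposite direction from that of crc. That of CG6287 and Shmt differed in the same direction. The direction of crc itself depended on the control library and the total.

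**Figure D5:**
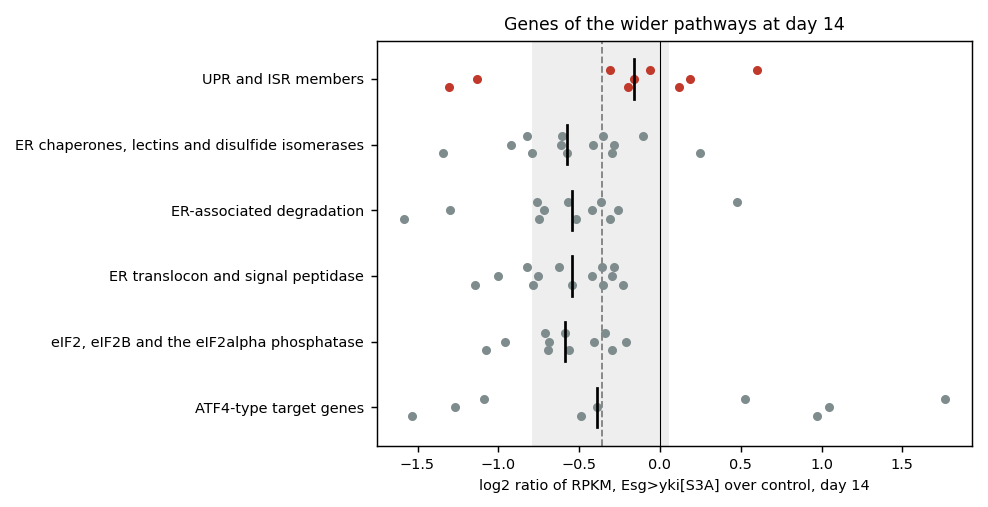
Log2 ratio (x axis) of yki-tumor over control thoraces at day 14 for each tested gene (points) of the 9 genes and the 5 further lists (rows), with all reads on genes as the total, short bars at list medians, a dashed line at the median of all genes (-0.36) and a grey band for their interquartile range (-0.78 to 0.05). The chaperone, degradation, translocon and eIF2 lists lie mostly left of 0, and the ATF4 target list is the widest, from -1.53 to 1.77.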

How the data were processed

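RNA from thoraces was depleted of ribosomal RNA, sequenced in 4 pools as 75-base single reads and aligned with STAR 2.7.2b to FlyBase r6.30 by the authors. The deposited values are estimated counts per gene in steps of 0.25, taken here as means over the 4 pools and multiplied by 4 to give reads. The counting program and its use of strand and of reads with several matches are not given in the sources used here.

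RPKM was computed with exon lengths from the Ensembl BDGP6 annotation (99.7% of genes matched by FlyBase identifier, and the 56 without a length held 0.0760% of reads). Ratios compare 1 library with 1 library for genes reaching 2 RPKM in one of them, and 2-fold was the threshold. Exact 95% intervals cover counting error only, and PCR duplicates make them too narrow. Alternative totals were TMM (edgeR 4.0.16), median of ratios (DESeq2 1.42.0) and nuclear protein-coding reads. The ratio code was tested on simulated data. Members and lists were chosen with earlier results of these data known. All 9 members are named, and of each further list the 3 genes of highest mean RPKM and the 3 of largest day 14 ratio could be named. The genes most like a member were the 3 with the highest Pearson correlation of log2(RPKM + 1) among genes averaging at least 10 RPKM. Other control libraries in place of control day 14 were added after the data were seen. Ufd1-like and Spase18-21 were not matched.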

Additional observations from a re-analysis of the deposited data

Results flagged for a closer look

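The crc mRNA moved in opposite directions in the 2 genotypes in both phases. From day 2 to day 14 its log2 ratio was -0.43 in yki-tumor and 1.004 in control thoraces. From day 14 to day 38 it was 0.72 in yki-tumor and -0.61 in control thoraces. Both contrasts use the same 2 day 14 libraries, so they are not independent. With nuclear protein-coding reads as the total the first value in yki-tumor thoraces was -0.01.

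Gp93 had a log2 ratio of day 14 over day 2 of -1.50 in yki-tumor and 0.27 in control thoraces, the control value being -0.09 with TMM factors. At day 2 Gp93 was itself higher in yki-tumor than in control thoraces (0.64). Atf3 had a log2 ratio of day 38 over day 14 of -0.15 in yki-tumor and 0.46 in control thoraces, and the value in yki-tumor thoraces was 0.01 from day 14 to day 20. With 1 library per condition none of these differences between genotypes was tested.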

How the results depend on the processing

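With 1 library per condition, differences between flies cannot be told apart from differences between conditions. No paired analysis was possible because each condition had 1 library and the labels carry no replicate numbers. Over 81 log2 ratios of the members, the sign changed in 14 with TMM, 13 with median of ratios, 15 with nuclear protein-coding reads and 0 with a pseudocount of 1 RPKM. The cause of each change below was not tested, beyond what a lower threshold brings by construction.

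No share over all genes is given below for a pseudocount or for libraries put in place of others. At day 14 (main counts 0 higher, 2 lower in yki-tumor thoraces) the higher count was 1 with nuclear reads, 1 at 1.5-fold and 2 with control day 2 in place of control day 14. Of all genes, 7.95% were higher with nuclear reads and 7.42% at 1.5-fold. The lower count was 0 with TMM, 1 with median of ratios, 0 with nuclear reads, 0 with day 8 of yki-tumor for day 14, 0 with control day 2 and 1 with control day 38. The share of all genes that were lower was 8.34% with TMM, 9.01% with median of ratios and 6.73% with nuclear reads. For day 8 over day 2 in yki-tumor thoraces (main 3 higher) the higher count was 0 with TMM, 0 with median of ratios, 1 with a pseudocount and 6 at 1.5-fold. There 5.22% of all genes were higher with TMM, 5.13% with median of ratios and 34.4% at 1.5-fold. For day 38 over day 14 in yki-tumor thoraces (main 1 higher) the higher count was 0 with TMM, 0 with nuclear reads, 0 with day 8 for day 14 and 2 at 1.5-fold. Here the shares of all genes were 12.3% with TMM, 11.5% with nuclear reads and 38.5% at 1.5-fold. For day 14 over day 2 in control thoraces (main 3 higher) the higher count was 1 with TMM, 1 with median of ratios, 1 with a pseudocount and 5 at 1.5-fold, and in yki-tumor thoraces the lower count (main 1) was 0 with day 8 for day 14. In control thoraces 8.01% of all genes were higher with TMM, 8.06% with median of ratios and 34.9% at 1.5-fold. At 1.5-fold the higher count was also 1 at day 2, 3 for day 20 over day 14 in yki-tumor thoraces and 1 for day 38 over day 14 in control thoraces, where 1 was lower. The shares of all genes higher in these comparisons were 7.01%, 38.9% and 21.8%, and 18.9% were lower in the last. The members' median difference between the genotypes' changes over induction was -0.149 with all reads on genes. It was 0.220 with TMM, 0.185 with median of ratios and 0.205 with nuclear reads. The median of all genes was -0.372 with all reads on genes, -0.00395 with TMM, -0.0390 with median of ratios and -0.0187 with nuclear reads. The members' median thus lay above that of all genes under each of these totals, although its sign changed. The members' median was -0.0888 with day 8 for day 14 and -0.132 with a pseudocount.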
